A study of Mus musculus with 12 samples.

Results

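The comparison described here is the step from 1 to 1.5 µM CHIR99021 in mouse mammary organoids, taken as the 3 libraries titled 1.5 uM against the 3 titled 1 uM, which are 6 of the 12 libraries of the series. Organoids of primary mammary epithelium came from virgin female FVB/N mice aged 8 to 11 weeks and were grown in Matrigel, a gel of basement membrane proteins, in a minimal medium. Each of 3 cultures, from 3 animals, was split over vehicle (DMSO) and 1, 1.5 and 3 µM CHIR99021 for 7 days, after which polyadenylated RNA was sequenced. The libraries of a culture are compared with each other, so every difference below is a within-animal difference, and n = 3 cultures in each test. The titles also tag cultures 1, 2 and 3 as med, min and max, terms that the labels do not explain. No mutation or transgene is named in the labels.

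CHIR99021 inhibits GSK3, which otherwise tags β-catenin for destruction, so β-catenin builds up and drives WNT target genes together with TCF and LEF factors. In the mammary gland WNT signals sustain basal and stem cells, and strong β-catenin activity is known to turn mammary epithelium towards skin-like, squamous differentiation. Cell division is read in RNA from replication genes, many driven by E2F factors, and from mitotic genes, many of whose promoters carry CCAAT boxes and a cell cycle homology region (CHR, TTTGAA). Fresh organoids can carry fibroblasts, macrophages, vessel cells and fat cells along with the epithelium.

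Library totals were 18.2, 19.4 and 16.7 M counts (M, mega) at 1 µM and 14.6, 24.5 and 16.6 M at 1.5 µM, within a range of 10.1 to 24.5 M over the series. Of 25210 genes in the table, 15316 passed the filter on low counts. edgeR's quasi-likelihood test with the culture as a block called 3351 of these at an adjusted p under 0.05, 21.9% of the genes tested. There were 1737 higher at 1.5 µM (11.3%) and 1614 lower (10.5%). A fold above 2 was reached by 575 of the higher and 903 of the lower genes. The median log2 fold change over all genes tested was -0.01. Calls in the neighbouring steps, which share libraries with this one, numbered 859 from DMSO to 1 µM (5.61%) and 7149 from 1.5 to 3 µM (46.7%). Culture 3 stood apart from cultures 1 and 2 at 3 µM and also at 1.5 µM. At 3 µM the chi-square per degree of freedom of its counts against theirs was 115 and 108, against 15.3 between cultures 1 and 2. At 1.5 µM these values were 82.2 and 86, against 13.8, and at 1 µM 102 and 63.2, against 36.6. The 3 µM library of culture 3 fed the common estimate of spread. Without it the step from 1 to 1.5 µM had 5205 calls, and without the block by culture 831. The count fell below 3351 by over 1.5 times when any single library at either dose was left out, to 1459, 1205 and 1939 without 1 µM replicates 1, 2 and 3 and to 1878, 1485 and 2097 without the 1.5 µM replicates. Of the 102 genes named below, 30 overlap a gene on the opposite strand in GENCODE M21, and their counts are uncertain because the sources used here do not give whether counting used the strand. They are Mki67, Top2a, Tk1, E2f7, E2f8, Ccnd1, Rb1, Cdkn1a, Col15a1, Pdgfra, Csf1r, Pparg, Krt10, Hrnr, Aadacl2, Krt5, Prom1, Tagln, Mylk, Axin2, Lgr5, Galnt16, Nos1, Ly6g6c, Atp6v1c2, Cntnap4, Slurp1, Nr3c2, Ampd3 and Tchh.

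**Figure D1:**
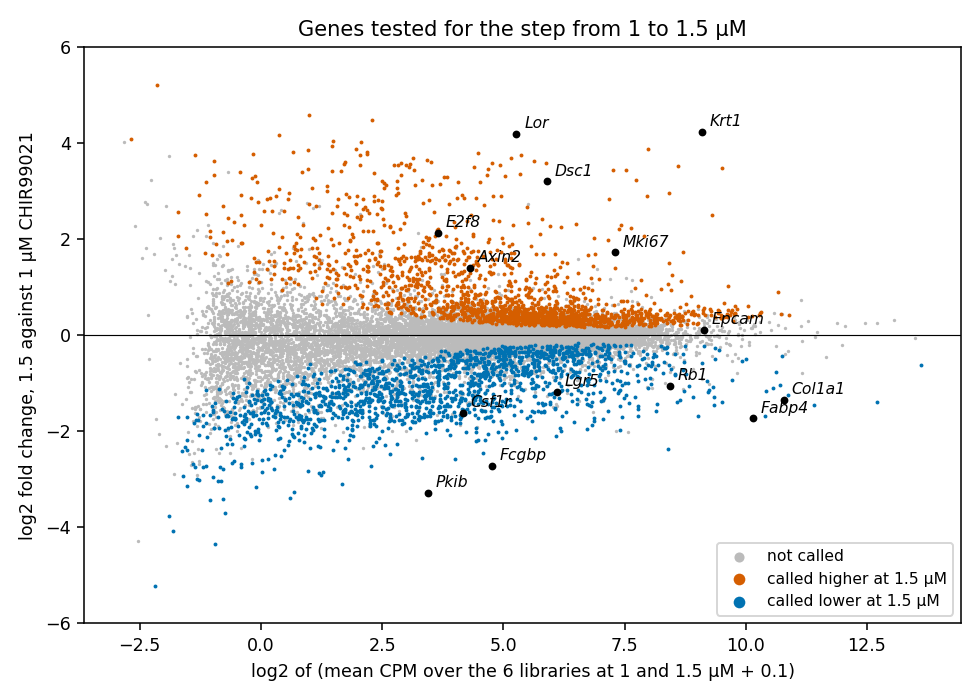
Each point is 1 of 15316 genes tested, with the log2 mean CPM over the 6 libraries at 1 and 1.5 µM (0.1 added) across and the log2 fold change from 1 to 1.5 µM upward. The 1737 orange genes were called higher and the 1614 blue genes lower, grey genes were not called, and labelled black points are genes described in the text.

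Cell division genes rose together in this step. Over all genes tested, 11.3% were called higher. All 57 genes tested of a list for mitotic entry and the spindle were called higher, with a median log2 fold change of 1.57. Of 36 genes for replication licensing and DNA synthesis, 32 were called higher, with a median of 1.03. None of the 93 fell in any of the 3 cultures. In every culture the medians were alike, at 1.76, 1.47 and 1.40 for the mitotic list and 1.12, 1.03 and 0.97 for the replication list in cultures 1, 2 and 3. All members of both lists were higher in each 1.5 µM library than in every 1 µM library, against 19.3% of all genes tested.

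The summed level of the mitotic list was 693, 863 and 801 CPM (counts per M counts of the library, after TMM scaling, the trimmed mean of M values) at 1 µM and 2242, 2252 and 1992 CPM at 1.5 µM. In DMSO it was 732, 777 and 611 CPM, overlapping the range at 1 µM. The replication list summed to 639, 573 and 557 CPM in DMSO, 649, 662 and 670 CPM at 1 µM, and 1493, 1362 and 1326 CPM at 1.5 µM. From DMSO to 1 µM edgeR called 0 of the 57 mitotic and 0 of the 36 replication genes. Unadjusted p fell under 0.05 for 0 and 2 of them in that step, and DESeq2 called 0 and 0. From 1.5 to 3 µM, 25 mitotic and 21 replication genes were called higher, against 24.7% of all genes tested. At 3 µM the cultures spread apart, with mitotic sums of 3627, 4860 and 1734 CPM, the last of them below the level of the same culture at 1.5 µM.

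The mitotic genes of this step can be read at the sequence level through their promoters. Stretches of 100 bases just upstream of the start sites of 3 mitotic genes and of Mcm6 are printed. The stretches were picked for the motifs they hold. They are RefSeq sequences of build GRCm38.p6, read 5′ to 3′ on the gene's own strand, which is the minus strand in each case. Capitals mark CCAAT boxes, the TTTGAA element and the E2F words TTTCCCGC or TTTGGCGC, found on either strand. The stretches lie at chr10:69352913-69353012 for Cdk1, chr11:99024190-99024289 for Top2a, chr13:100786487-100786586 for Ccnb1 and chr1:128359706-128359805 for Mcm6.
Cdk1: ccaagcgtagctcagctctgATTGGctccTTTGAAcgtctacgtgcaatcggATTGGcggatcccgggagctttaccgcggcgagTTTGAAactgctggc
Top2a: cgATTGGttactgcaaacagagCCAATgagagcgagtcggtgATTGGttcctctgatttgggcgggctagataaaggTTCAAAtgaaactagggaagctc
Ccnb1: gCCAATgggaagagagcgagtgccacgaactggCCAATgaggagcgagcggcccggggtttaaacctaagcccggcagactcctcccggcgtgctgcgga
Mcm6: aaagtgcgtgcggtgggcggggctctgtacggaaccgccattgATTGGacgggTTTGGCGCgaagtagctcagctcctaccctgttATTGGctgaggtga
In Cdk1, CCAAT matches began 80 and 48 bases before the start and TTTGAA matches 71 and 15 bases before it. Top2a held CCAAT matches at 98, 78 and 58 bases and 1 TTTGAA match at 23 bases. Ccnb1 held CCAAT at 99 and 67 bases and no TTTGAA in this stretch. Mcm6 held CCAAT at 57 and 14 bases and an E2F word at 47 bases. Other named genes differed in their stretches of the same length, which are not printed. Mcm5 held CCAAT and no E2F word. Mcm2 held TTTGAA and neither CCAAT nor an E2F word, and Mki67 held TTTGAA and no CCAAT.

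Promoter windows of 250 upstream bases were on hand for 46 of the 57 mitotic genes (48 windows) and 30 of the 36 replication genes (34 windows). CCAAT was present in 70.8% of the mitotic windows, 50% of the replication windows and 33.8% of all 32851 windows. TTTGAA was present in 37.5%, 11.8% and 16.0% in the same order, and both motifs together in 33.3%, 8.8% and 5.5%. The E2F words went the other way, in 4.2% of mitotic, 17.6% of replication and 1.3% of all windows. ATCAAAG, the word bound by TCF and LEF factors, was in 4.2% of mitotic, 0.0% of replication and 3.2% of all windows. These shares describe letters in a window and were not tested, and a match is not a measured binding site.

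Mki67, the nuclear protein used to stain cycling cells (7:135689788-135716379, GRCm38), stood at 58.3, 83.9 and 76.2 CPM at 1 µM and at 246, 245 and 231 CPM at 1.5 µM. The 1.5 µM libraries lay close together and well above every 1 µM library. Its log2 fold change was 1.73 ± 0.313 (SE, adjusted p = 0.0067 in edgeR's test). Cdk1, the kinase that drives entry into mitosis, had 14.0, 17.5 and 16.9 CPM and then 55.3, 47.1 and 44.4 CPM, a log2 fold change of 1.59 ± 0.249 (edgeR adjusted p = 0.0037). Its partner cyclin Ccnb1 had 9.24, 9.75 and 9.32 CPM and then 32.5, 34.3 and 29.0 CPM. That was a log2 fold change of 1.75 ± 0.326, with an edgeR adjusted p of 0.0075. In each of these genes the 1 µM libraries overlapped those of DMSO, where Cdk1 had 16.9, 16.3 and 13.9 CPM.

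Top2a, the topoisomerase that untangles chromosomes, went from 48.7, 62.3 and 55.3 CPM to 188, 188 and 167 CPM. Aurkb, the kinase of the chromosomal passenger complex, went from 5.84, 6.58 and 6.70 CPM to 21.8, 21.9 and 18.3 CPM. Their log2 fold changes were 1.70 ± 0.240 and 1.68 ± 0.233 (edgeR adjusted p = 0.0027 and 0.0024). For both genes the groups did not overlap.

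Among replication genes, subunits of the MCM helicase that is loaded on origins were called. Mcm6 had 34.4, 38.1 and 42.0 CPM at 1 µM and 116, 104 and 109 CPM at 1.5 µM, a log2 fold change of 1.52 ± 0.159 (edgeR adjusted p = 0.00089). Mcm5 and Mcm2 rose by 1.69 ± 0.243 and 1.24 ± 0.147 on the log2 scale (edgeR adjusted p = 0.0029 and 0.0013). Cdt1, which loads the helicase, had 11.1, 8.87 and 10.7 CPM and then 30.2, 22.1 and 26.1 CPM. Tk1, thymidine kinase, had 24.5, 26.4 and 22.6 CPM and then 52.7, 45.4 and 41.6 CPM. Both were called, at log2 fold changes of 1.35 ± 0.156 and 0.92 ± 0.084 (edgeR adjusted p = 0.0012 and 0.00058).

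Pcna, the sliding clamp of DNA polymerase, moved less, from 47.9, 51.5 and 55.4 CPM to 89.2, 86.8 and 77.9 CPM. Its log2 fold change of 0.71 ± 0.161 had an edgeR adjusted p of 0.016, which rose to 0.079, 0.083, 0.057 and 0.057 without 1 µM replicate 1, 1 µM replicate 2, 1.5 µM replicate 1 and 1.5 µM replicate 2. Gins4, a subunit of the GINS complex of the replication fork, had the highest p of the list, with 18.8, 17.5 and 18.9 CPM and then 19.7, 22.7 and 20.3 CPM. It was not called (log2 fold change 0.18 ± 0.102, edgeR adjusted p = 0.24).

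Upstream of replication, genes of the G1 and S transition moved less uniformly. Of 25 tested, 11 were called higher (44%, against 11.3% of all genes tested). The 3 called lower (12%) were near the 10.5% of all genes tested. The median log2 fold change of the list was 0.26. E2f8, an E2F family member that represses late in the cycle (7:48866429-48881596, GRCm38), had 4.32, 5.02 and 4.26 CPM at 1 µM and 25.8, 19.5 and 15.4 CPM at 1.5 µM. The lowest 1.5 µM library was above 3 times the highest at 1 µM. Its log2 fold change was 2.13 ± 0.185 (edgeR adjusted p = 0.00054), and its relative E2f7 rose by 1.34 ± 0.158 (edgeR adjusted p = 0.0013). Ccnd1, the G1 cyclin that opens the cycle through CDK4 and CDK6, had 136, 135 and 151 CPM and then 296, 277 and 372 CPM. Myc, a growth-promoting transcription factor, had 64.1, 57.0 and 79.9 CPM and then 133, 110 and 162 CPM. Ccnd1 rose by 1.16 ± 0.178 and Myc by 1.01 ± 0.151 on the log2 scale (edgeR adjusted p = 0.0035 and 0.0033).

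Rb1, the retinoblastoma protein that holds E2F in check (14:73183673-73325822, GRCm38), moved in the opposite direction. It had 452, 415 and 538 CPM at 1 µM and 205, 210 and 258 CPM at 1.5 µM, with no overlap. The log2 fold change was -1.06 ± 0.0707 (edgeR adjusted p = 0.00034). In DMSO Rb1 had 522, 471 and 628 CPM, and at 3 µM 61.3, 58.1 and 65.6 CPM. Cdkn1a, the CDK inhibitor p21, had 58.3, 92.3 and 93.9 CPM at 1 µM and 75.3, 86.0 and 112 CPM at 1.5 µM. It was not called (log2 fold change 0.18 ± 0.195, edgeR adjusted p = 0.55), and its groups overlapped.

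Leaving the block out kept 46 of the 57 mitotic and 27 of the 36 replication calls. Leaving out whole cultures cost more. With culture 1 or culture 2 removed from all doses, 1 and 1 of the mitotic genes and 7 and 3 of the replication genes were called. The 11 higher calls of the G1 list became 5, 6 and 7 without 1 µM replicate 1, 1 µM replicate 2 and 1.5 µM replicate 3. The 3 lower calls became 1 without any one of the 1 µM replicates or without 1.5 µM replicate 2.

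**Figure D2:**
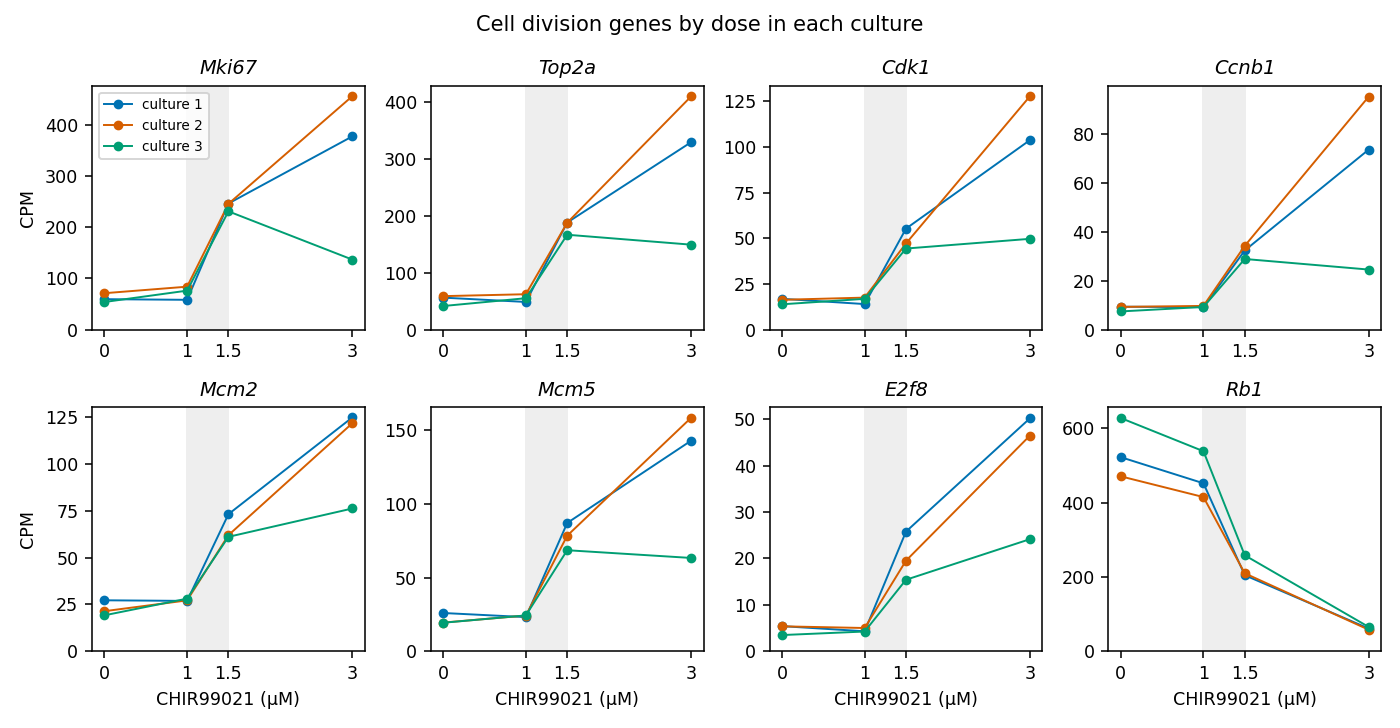
CPM (linear axis from 0) of 8 genes against CHIR99021 dose in µM, with 1 line per culture and the step from 1 to 1.5 µM shaded. Mki67, Top2a, Cdk1, Ccnb1, Mcm2, Mcm5 and E2f8 were near their DMSO level at 1 µM and higher at 1.5 µM in all 3 cultures, Rb1 was lower, and culture 3 at 3 µM lay below the other cultures in the genes that rose.

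The DMSO to 1 µM and the 1 to 1.5 µM steps were also compared directly, gene by gene. edgeR called 0 of 15316 differences between them, with 1388 at an unadjusted p under 0.05 (9.06%), while DESeq2 called 97 and edgeR without the 3 µM library of culture 3 called 133. Unadjusted p was under 0.05 for 48 of 57 mitotic and 26 of 36 replication genes. Without that library 25 mitotic and 9 replication genes were called as rising more in the second step. Those counts were 2 and 3 with DESeq2 and 7 and 3 without culture 3. They were 0 and 0 with no replicate block and without any 1 of the other libraries. Against the 1.5 to 3 µM step, 609 genes differed (3.98%; the step of 1 to 1.5 µM had the higher value in 2.08% and the lower in 1.9%), of which 0 were mitotic and 1 was a replication gene. Those list counts depended on the fit. Without the 3 µM library of culture 3, the value here was higher for 11 mitotic and 4 replication genes and lower for 1 mitotic gene. With scaling by library size alone it was higher for 8 and 10, and with DESeq2 for 3 and 3. The count of 609 became 151, 179 and 191 without 1 µM replicates 1, 2 and 3, 35, 19 and 364 without the 1.5 µM replicates, and 393 and 2277 without 3 µM replicates 2 and 3. The steps differ in size, at 1, 0.5 and 1.5 µM.

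Genes of the stroma fell, together with those of macrophages, vessels and fat. Over all genes tested, 10.5% were called lower and 11.3% higher. Of 33 fibroblast identity genes tested, 16 were called lower and 1 higher, with a median log2 fold change of -1.15. For 38 collagen and matrix assembly genes the counts were 20 lower and 0 higher, with a median of -0.92. Lower calls were made for 15 of 19 macrophage and myeloid genes (median -1.57), 11 of 16 endothelial genes (median -1.20), 6 of 9 pericyte and smooth muscle genes (median -1.04) and 10 of 11 adipocyte genes (median -1.73). Members that fell in all 3 cultures numbered 25, 25, 17, 13, 8 and 11 in these lists, against 32.9% of all genes tested. In bulk RNA, fewer cells of a type and less RNA per cell cannot be told apart.

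The level of stromal RNA differed widely between the cultures. Collagen and matrix genes summed to 10737, 24482 and 44960 CPM at 1 µM in cultures 1, 2 and 3 and to 5580.4, 11137 and 31457 CPM at 1.5 µM. Culture 3 therefore held more at 1.5 µM than cultures 1 and 2 at 1 µM, and the groups overlapped although each culture fell. In DMSO the sums were 13231, 28471 and 45583 CPM. Macrophage and myeloid genes summed to 628, 1915 and 2982 CPM and then to 454, 785 and 1165 CPM.

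Col1a1, a chain of type I collagen (11:94936224-94953042, GRCm38), had 549, 1714 and 4869 CPM at 1 µM and 173, 622 and 2638 CPM at 1.5 µM. Every culture fell, but the highest library at 1.5 µM was above the lower pair at 1 µM. The log2 fold change was -1.35 ± 0.211 with an edgeR adjusted p of 0.0037, and without the block the adjusted p was 0.68. Col1a2, the other chain, and Col3a1, type III collagen, changed by -1.25 ± 0.215 and -1.45 ± 0.258 (edgeR adjusted p = 0.0055 and 0.0063). Col15a1, a basement membrane zone collagen, had 194, 548 and 530 CPM and then 78.8, 190 and 194 CPM. Sparc, a collagen-binding matrix protein, changed by -1.03 ± 0.149, and Col15a1 by -1.43 ± 0.160 (edgeR adjusted p = 0.0029 and 0.0011).

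Among receptors and regulators of fibroblasts, Pdgfrb, the PDGF receptor β, had 69.2, 193 and 354 CPM and then 27.0, 81.0 and 203 CPM. It changed by -1.12 ± 0.172 (edgeR adjusted p = 0.0035). Fap, a fibroblast surface protease, had 3.50, 6.92 and 9.09 CPM and then 1.53, 2.69 and 3.65 CPM, a change of -1.30 ± 0.143 (edgeR adjusted p = 0.0010). Prrx2, a mesenchymal homeobox factor, and Cdh11, a mesenchymal cadherin, changed by -1.70 ± 0.216 and -1.43 ± 0.126 (edgeR adjusted p = 0.0017 and 0.00054). Cdh11 overlapped between DMSO (52.8, 151 and 220 CPM) and 1 µM (54.8, 184 and 221 CPM) and fell to 18.7, 67.0 and 91.0 CPM at 1.5 µM.

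Pdgfra, the PDGF receptor α, had 48.6, 176 and 424 CPM and then 26.2, 69.2 and 277 CPM. Its change of -0.95 ± 0.264 was called (edgeR adjusted p = 0.034), but not without any one of the 6 libraries at 1 and 1.5 µM or without 3 µM replicate 2, when the adjusted p was 0.050 to 0.15. Lum, a collagen-binding proteoglycan, had 20.8, 156 and 346 CPM and then 7.07, 33.0 and 137 CPM, a change of -1.79 ± 0.409 (edgeR adjusted p = 0.017). Its adjusted p was 0.069, 0.087, 0.084 and 0.066 without 1 µM replicate 1, 1 µM replicate 2, 1.5 µM replicate 2 and 1.5 µM replicate 3. Dcn, decorin, had 26.2, 176 and 633 CPM and then 9.49, 50.3 and 596 CPM, so culture 3 hardly moved. It was not called (-1.07 ± 0.427, edgeR adjusted p = 0.10), though it was without DMSO replicate 3 (0.037). Ly6a, listed as a fibroblast and as a luminal gene, was the 1 fibroblast list member called higher. It went from 33.3, 25.8 and 33.9 CPM to 60.2, 54.1 and 70.6 CPM (0.99 ± 0.107, edgeR adjusted p = 0.0010).

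Csf1r, the receptor that keeps macrophages alive, had 6.30, 31.3 and 42.8 CPM at 1 µM and 2.16, 9.07 and 14.8 CPM at 1.5 µM. The cultures kept their order and the groups overlapped. Its log2 fold change was -1.62 ± 0.101 (edgeR adjusted p = 0.00034). Tyrobp, a signalling adaptor of myeloid cells, and Mpeg1, a pore protein of macrophages, changed by -1.82 ± 0.141 and -1.60 ± 0.176 (edgeR adjusted p = 0.00035 and 0.0011). Cd68, a lysosomal protein of macrophages, had 14.7, 45.6 and 68.0 CPM and then 8.34, 14.5 and 20.8 CPM. Its change of -1.41 ± 0.324 (edgeR adjusted p = 0.017) lost its call without 1 µM replicate 1, 1 µM replicate 2, 1.5 µM replicate 2 or 1.5 µM replicate 3 (0.054, 0.088, 0.077 and 0.066). Cd14, which epithelial cells also make, was not called, with 217, 284 and 220 CPM and then 258, 322 and 272 CPM (0.24 ± 0.243, edgeR adjusted p = 0.52).

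For vessels, Kdr, the VEGF receptor of endothelium, had 17.9, 29.8 and 43.8 CPM and then 7.13, 10.1 and 18.8 CPM (log2 fold change -1.35 ± 0.246, edgeR adjusted p = 0.0068). Rgs5, a G protein regulator typical of pericytes, had 12.4, 22.3 and 86.1 CPM and then 2.61, 3.15 and 16.7 CPM (-2.45 ± 0.267, edgeR adjusted p = 0.0010). The 11 endothelial calls became 1 without any one of the 1 µM replicates or without 1.5 µM replicate 1 or 2. In fat genes, Fabp4, a fatty acid carrier, had 1846, 2473 and 699 CPM and then 714, 916 and 116 CPM. Cfd, adipsin, had 48.5, 54.2 and 14.7 CPM and then 15.0, 13.4 and 0.753 CPM, and Pparg, the master regulator of fat cells, had 38.3, 57.2 and 24.8 CPM and then 14.3, 19.2 and 5.33 CPM. Their log2 fold changes were -1.73 ± 0.319, -2.19 ± 0.401 and -1.69 ± 0.247 (edgeR adjusted p = 0.0071, 0.0071 and 0.0030). The 10 adipocyte calls became 5, 6 and 4 without 1 µM replicate 1, 1 µM replicate 2 and 1.5 µM replicate 2.

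These falls rest on the pairing by culture. With no replicate block, 0 of the fibroblast, collagen, macrophage, endothelial, pericyte and adipocyte genes were called lower, against 16, 20, 15, 11, 6 and 10 with it. The collagen count became 10 and 11 without 1 µM replicate 2 and 1.5 µM replicate 2. At the step from DMSO to 1 µM, where 3.06% of all genes tested were called lower, the lower calls were 2 fibroblast, 1 collagen, 1 macrophage, 3 endothelial, 0 pericyte and 5 adipocyte genes, and from 1.5 to 3 µM they were 15, 26, 16, 3, 5 and 10. In that last step 22% of all genes tested were called lower, and the endothelial 3 of 16 is below that share. Vessel and fat genes had thus moved before 1.5 µM in edgeR's test, with 3 of 16 and 5 of 11 called lower at the first step. Other measures covered more of them. From DMSO to 1 µM the endothelial median was -1.07 and the adipocyte median -1.35. DESeq2 called 10 of 16 endothelial and 8 of 11 adipocyte genes lower there, and 13 and 9 had a lower unadjusted p under 0.05. In either direction, 3616 of all 15316 genes tested had an unadjusted p under 0.05 in that step. The fibroblast, collagen and macrophage medians there were -0.22, -0.16 and -0.23. In these lists 7, 5 and 4 genes had a lower unadjusted p under 0.05, and DESeq2 called 3, 1 and 1 lower. For the pericyte list at the first step, 5 genes had an unadjusted p under 0.05 and DESeq2 called 2.

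**Figure D3:**
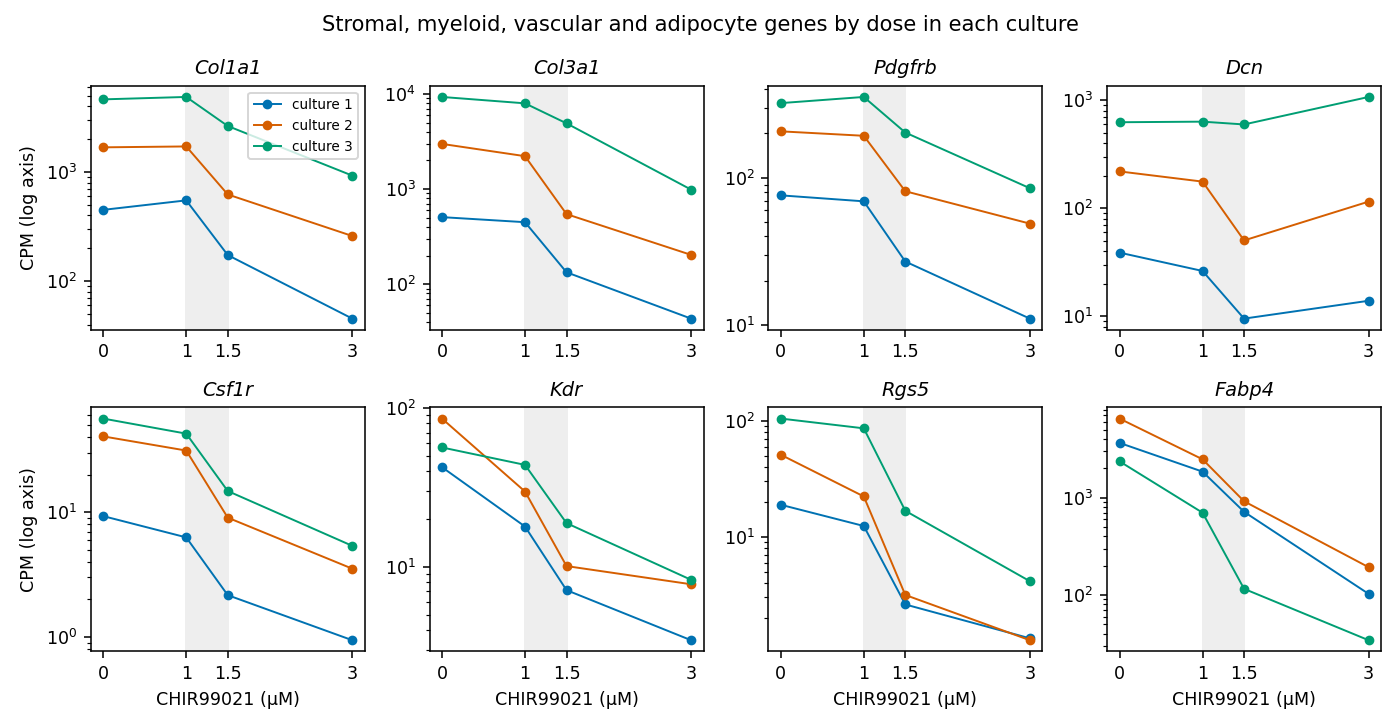
CPM (log axis) of 8 stromal, myeloid, vascular and adipocyte genes against CHIR99021 dose in µM, with 1 line per culture and the step from 1 to 1.5 µM shaded. The lines of the 3 cultures lie far apart, and within each culture all 8 genes were lower at 1.5 than at 1 µM, with culture 3 nearly level for Dcn (633 and 596 CPM).

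Epithelial genes did not fall with the stroma. Of 25 epithelial identity genes, 6 were called higher (24%, against 11.3% of all genes tested) and 0 lower. Their median log2 fold change was 0.33. No member had a lower unadjusted p under 0.05, and DESeq2 called 7 higher and 0 lower. Epcam, the epithelial adhesion molecule, had 651, 557 and 427 CPM and then 645, 630 and 483 CPM, which overlapped (0.11 ± 0.223, edgeR adjusted p = 0.76). Cdh1, E-cadherin, had 716, 586 and 465 CPM and then 847, 804 and 567 CPM. Its change of 0.33 ± 0.119 was not called (edgeR adjusted p = 0.076), but was without the 3 µM library of culture 3 (0.038). The count of 6 became 1, 2, 2 and 3 without 1 µM replicates 2 and 3 and 1.5 µM replicates 2 and 3, and 13 without the 3 µM library of culture 3. With no replicate block the count was 1, and leaving out 1 culture gave 0 to 5.

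Of 27 basal and myoepithelial genes, 4 were called higher and 7 lower. Those shares of 14.8% and 25.9% compare with 11.3% and 10.5% over all genes tested. The higher calls became 2, 1 and 1 without 1 µM replicates 1, 2 and 3 and 1 without 1.5 µM replicate 2 or 3, and without the 3 µM library of culture 3 there were 7 higher and 11 lower. With no replicate block the counts were 1 and 2. Krt5, the basal keratin, had 1257, 1076 and 1074 CPM and then 1959, 1874 and 2467 CPM, with no overlap. Its rise of 0.91 ± 0.271 was called (edgeR adjusted p = 0.043), but the call was lost in 7 of 12 fits that left out 1 library, namely any 1 µM replicate, 1.5 µM replicate 2 or 3, DMSO replicate 3 or 3 µM replicate 1 (adjusted p 0.059 to 0.17). Krt14, its partner, had 2105, 1587 and 1436 CPM and then 2972, 2862 and 2566 CPM (0.74 ± 0.252, edgeR adjusted p = 0.067, not called). Without DMSO replicate 2, 3 µM replicate 2 or 3 µM replicate 3, Krt14 was called (0.049, 0.027 and 0.022).

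Tagln, the actin-binding protein transgelin, had 64.2, 64.5 and 77.9 CPM and then 16.9, 19.8 and 26.4 CPM. All 1.5 µM libraries were far below the 1 µM libraries, and the log2 fold change was -1.72 ± 0.121 (edgeR adjusted p = 0.00034). Mylk, the kinase of myosin light chain, and Myl9, the chain itself, changed by -1.54 ± 0.216 and -1.57 ± 0.232 (edgeR adjusted p = 0.0027 and 0.0032). Acta2, smooth muscle actin, had 108, 152 and 304 CPM and then 36.2, 46.9 and 146 CPM. It was not called (-1.37 ± 0.521, edgeR adjusted p = 0.091), but was without the 3 µM library of culture 3 (0.0041). Pericytes and fibroblasts express these contractile genes too, and the markers of both fell in the same step (6 of 9 pericyte and 16 of 33 fibroblast genes called lower). The part of those cells in the contractile genes was not tested.

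Luminal lists moved in both directions. Of 19 alveolar and milk genes, 3 were called higher and 2 lower (median log2 fold change 0.03). Of 15 hormone-sensing genes, 3 were called higher and 3 lower (median -0.13). Over all genes tested the shares were 11.3% and 10.5%. Btn1a1, a protein of the milk fat membrane, had 188, 184 and 240 CPM and then 49.6, 48.1 and 89.0 CPM (-1.75 ± 0.174, edgeR adjusted p = 0.00074). Prom1, prominin, rose from 14.8, 10.9 and 16.0 CPM to 30.6, 30.9 and 32.4 CPM (1.19 ± 0.164, edgeR adjusted p = 0.0024). Esr1, the oestrogen receptor, had 22.1, 13.6 and 12.6 CPM and then 16.9, 13.1 and 10.8 CPM and was not called (-0.21 ± 0.219, edgeR adjusted p = 0.52). Pgr, the progesterone receptor, had 3.50, 2.0 and 11.4 CPM and then 1.46, 0.768 and 5.39 CPM. Its change of -1.20 ± 0.280 (edgeR adjusted p = 0.017) lost its call without 1 µM replicate 1 or 3 or 1.5 µM replicate 1 or 2 (0.075, 0.083, 0.058 and 0.077).

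Genes of squamous differentiation, the programme of skin-like cells that flatten and build a cornified envelope, rose. Of 40 genes tested, 38 were called higher (95%, against 11.3% of all genes tested) and 0 lower, with a median log2 fold change of 2.94. Their summed level was 1366, 1495 and 880 CPM at 1 µM and 9128, 9590 and 5161 CPM at 1.5 µM, against 417, 224 and 206 CPM in DMSO. This programme had already begun at the lower dose, where 25 of the 40 were called higher against DMSO (2.55% of all genes tested). From 1.5 to 3 µM, 31 were called higher and 1 lower, against 24.7% and 22% of all genes tested. The sums at 3 µM were 54938, 52241 and 21159 CPM.

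Krt1, a keratin of suprabasal skin cells (15:101845428-101850786, GRCm38), had 75.5, 171 and 6.65 CPM at 1 µM and 1231, 1484 and 328 CPM at 1.5 µM. The groups did not overlap, and culture 3 was the lowest at both doses. The log2 fold change was 4.24 ± 0.633 (edgeR adjusted p = 0.0032). Its partner Krt10 had 141, 221 and 32.0 CPM and then 1715, 1774 and 469 CPM. That change of 3.49 ± 0.820 (edgeR adjusted p = 0.018) lost its call without any one of the 1 µM replicates or 1.5 µM replicate 2 or 3 (0.058 to 0.084). Lor, loricrin of the cornified envelope, had 5.43, 5.17 and 0.341 CPM and then 111, 103 and 4.63 CPM (4.19 ± 0.277, edgeR adjusted p = 0.00034). Culture 3 at 1.5 µM stayed below cultures 1 and 2 at 1 µM for Lor, so its groups overlapped.

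Dsc1, a cadherin of suprabasal desmosomes, had 15.9, 15.6 and 4.37 CPM and then 123, 146 and 53.5 CPM. Sprr1b, a small proline-rich envelope protein, had 12.6, 9.99 and 4.83 CPM and then 137, 128 and 58.6 CPM. Casp14, a protease of cornification, had 8.07, 7.50 and 2.27 CPM and then 69.8, 65.8 and 10.7 CPM. Their log2 fold changes were 3.21 ± 0.250, 3.59 ± 0.317 and 2.91 ± 0.218 (edgeR adjusted p = 0.00038, 0.00056 and 0.00034), with no overlap of groups in any of the 3 genes. Without the block 24 of the 40 were called higher, and Krt1 (adjusted p = 0.13), Lor (0.080) and Casp14 (0.10) lost their call. Culture 3 was the lowest at both doses in these 3 genes.

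By size, the 10 largest increases among eligible genes (called, higher in all 3 cultures and averaging at least 50 counts) were those of Gsdmc (4.48), Krt1, Lor, Lce1j (4.05), Alox12b (4.03), Slurp1 (3.96), S100a9 (3.87), Calm4 (3.87), Lce1l (3.81) and Hrnr (3.81), as log2 fold changes. Gsdmc is a gasdermin, Alox12b makes barrier lipids, and Lce1j, Lce1l and Hrnr are envelope genes of families whose close copies may share reads. Gsdmc had 0.508, 0.585 and 0.227 CPM and then 10.1, 12.1 and 5.39 CPM (edgeR adjusted p = 0.0019). Alox12b was not called without 1 µM replicate 2 (adjusted p = 0.063), and Hrnr not without 1 µM replicate 1 or 1.5 µM replicate 2 (0.071 and 0.072). The lowest p among eligible increases were those of Ly6g6c, Gm94, Pla2g2f, Lor and Atp6v1c2. Ly6g6c, a small surface protein, had 5.38, 4.97 and 4.89 CPM and then 23.9, 30.0 and 24.6 CPM (2.36 ± 0.133, edgeR adjusted p = 0.00034). Pla2g2f, a secreted phospholipase of upper skin layers, had 4.27, 6.53 and 1.99 CPM and then 62.2, 63.9 and 24.4 CPM (3.59 ± 0.249). Atp6v1c2, a subunit of the proton pump, had 66.5, 43.4 and 45.1 CPM and then 179, 175 and 133 CPM (1.67 ± 0.124).

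**Figure D4:**
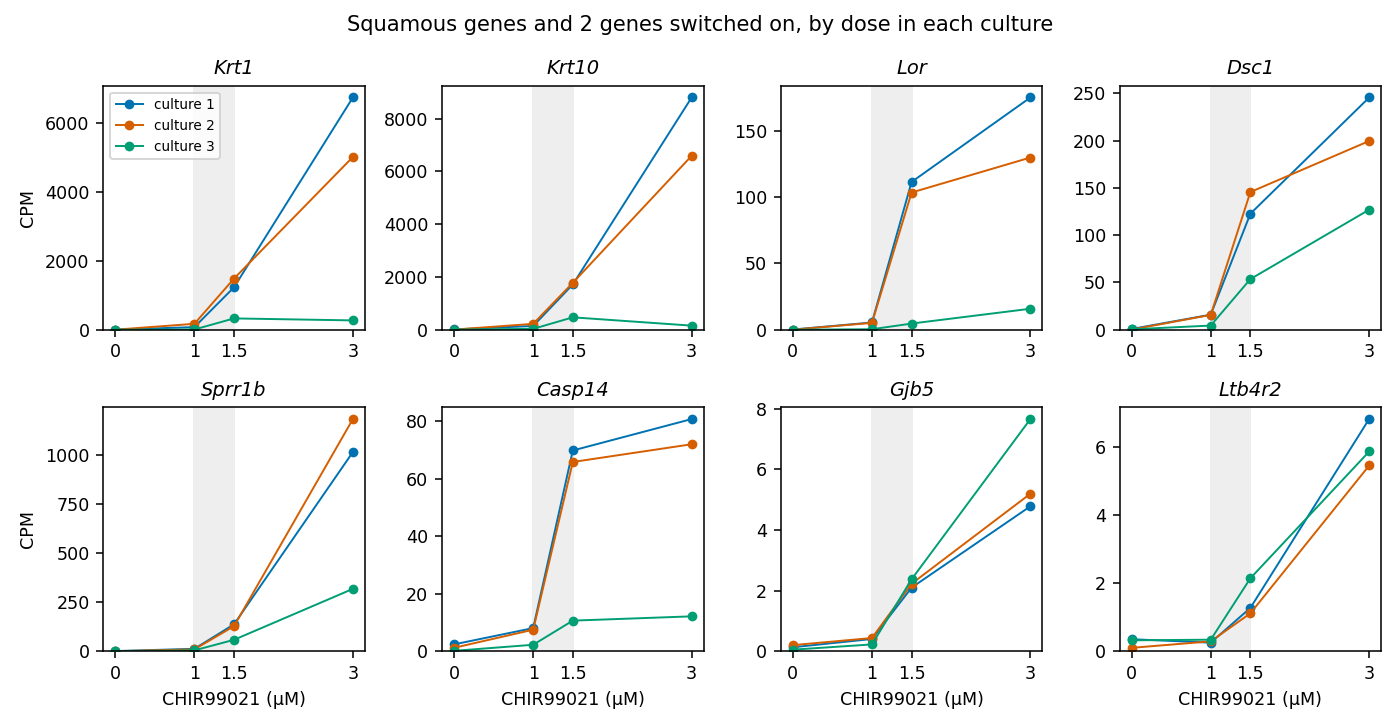
CPM (linear axis from 0) of 6 squamous genes and of Gjb5 and Ltb4r2, which were switched on, against CHIR99021 dose in µM, with 1 line per culture and the step from 1 to 1.5 µM shaded. Each gene was higher at 1.5 than at 1 µM in all 3 cultures, and culture 3 was the lowest of the 3 at 1.5 µM for Krt1, Krt10, Lor, Dsc1, Sprr1b and Casp14.

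A gene was counted as switched on where every 1 µM library was under 0.5 CPM, every 1.5 µM library was at least at 1 CPM and the gene was called. By this rule 7 genes came on and 0 went off, with edgeR or DESeq2 calls alike, and 0 went off also at an unadjusted p under 0.05. With limits of 1 and 2 CPM the counts were 19 and 2. Gjb5, the gap junction protein connexin 31.1, had 0.406, 0.439 and 0.227 CPM at 1 µM, from 8, 9 and 4 reads. At 1.5 µM it had 2.1, 2.23 and 2.38 CPM, from 33, 58 and 41 reads (2.60 ± 0.341, edgeR adjusted p = 0.0019). Ltb4r2, a receptor for lipid mediators, had 0.254, 0.292 and 0.341 CPM and then 1.27, 1.11 and 2.14 CPM (2.30 ± 0.335, edgeR adjusted p = 0.0029). In DMSO it had 0.355, 0.102 and 0.323 CPM, much as at 1 µM. With counts thinned to the smallest library Ltb4r2 was not called (adjusted p = 0.096).

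The other 5 switched on were Aadacl2, an arylacetamide deacetylase-like gene, the small proline-rich genes Sprr2a3, Sprr2b and Sprr2e, and Gm12551. Sprr2a3 had 0.152, 0.244 and 0.0568 CPM and then 5.16, 3.19 and 2.55 CPM (4.59 ± 0.506, edgeR adjusted p = 0.0011). Sprr2b had 7, 7 and 1 reads at 1 µM and 30, 67 and 33 at 1.5 µM, and Sprr2e had 1, 5 and 0 reads and then 19, 33 and 34. Sprr2 genes are near-identical copies, so reads may be split among them. The call of Sprr2e (3.79 ± 0.880, edgeR adjusted p = 0.025) was lost without 1 µM replicate 1 or 3 or 1.5 µM replicate 1 or 2 (0.084, 0.083, 0.068 and 0.086). Gm12551 had 0.203, 0.487 and 0.0568 CPM, then 2.48, 1.88 and 1.16 CPM, and 1.1, 1.16 and 0.621 CPM at 3 µM. Of the 7 genes switched on, Sprr2b was already called higher from DMSO to 1 µM (log2 fold change 5.14, edgeR adjusted p = 0.039). It had 0 reads in every DMSO library. The others were not called in that step (edgeR adjusted p 0.063 to 0.97). Log2 fold changes there were 2.72 for Aadacl2, 3.2 for Gm12551 and 1.55 for Gjb5, against 0.94 for Sprr2a3 and 0.087 for Ltb4r2.

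Among the eligible decreases (called, lower in all 3 cultures and averaging at least 50 counts), the largest was that of Pkib, an inhibitor of protein kinase A (10:57631981-57741112, GRCm38). It had 28.5, 21.8 and 7.95 CPM at 1 µM and 2.74, 2.77 and 0.637 CPM at 1.5 µM, with no overlap. Its log2 fold change was -3.28 ± 0.225 (edgeR adjusted p = 0.00034). Pkib had 106, 61.7 and 15.7 CPM in DMSO, so it had begun to fall before. Fcgbp, a mucin-like secreted protein, had 40.6, 43.0 and 58.0 CPM and then 6.49, 7.49 and 7.24 CPM. Hepacam2, an immunoglobulin-like adhesion protein, had 6.96, 8.33 and 9.26 CPM and then 0.955, 0.999 and 1.80 CPM. Fcgbp changed by -2.72 ± 0.193 and Hepacam2 by -2.73 ± 0.284 (edgeR adjusted p = 0.00034 and 0.00080).

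Galnt16, a glycosyltransferase, and Nos1, neuronal nitric oxide synthase, were not called between DMSO and 1 µM and then fell. Galnt16 had 3.55, 3.31 and 9.77 CPM at 1 µM and 0.446, 0.269 and 1.27 CPM at 1.5 µM (-3.11 ± 0.483, edgeR adjusted p = 0.0036). Nos1 had 1.68, 2.68 and 13.5 CPM and then 0.509, 0.576 and 1.33 CPM (-2.58 ± 0.333, edgeR adjusted p = 0.0018). The rest of the 10 largest decreases among these eligible genes were Retn, Nxpe5, Ces1d, Rgs5 and Cntnap4, at -2.57, -2.57, -2.48, -2.45 and -2.39. Retn, the fat cell hormone resistin, was not called without 1.5 µM replicate 2 (adjusted p = 0.054) and Cntnap4 not without 1 µM replicate 2 (0.058). Nxpe5 was not called without 1 µM replicate 2 or 3 or 1.5 µM replicate 2 (0.071, 0.11 and 0.097). Csf1r, Rb1, Tagln and Pkib were among the eligible decreases with the lowest p.

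Of 22 WNT feedback genes, 3 were called higher and 3 lower, near the shares over all genes tested (11.3% and 10.5%), with a median log2 fold change of -0.06. The higher calls became 1 without 1 µM replicate 2 or 3 or any 1.5 µM replicate, the lower calls 1 without 1 µM replicate 2 or 1.5 µM replicate 2 or 3, and both became 5 without the 3 µM library of culture 3. Axin2, a scaffold of the β-catenin destruction complex that WNT itself induces, had 19.5, 5.85 and 7.39 CPM and then 49.3, 18.6 and 18.0 CPM. Culture 1 was the highest at both doses and the groups overlapped (1.41 ± 0.209, edgeR adjusted p = 0.0032). Lgr5, an R-spondin receptor and stem cell marker, had 95.1, 77.2 and 112 CPM and then 35.7, 30.5 and 60.5 CPM. Its change of -1.19 ± 0.229 (edgeR adjusted p = 0.0087) was not called without 1.5 µM replicate 2 (0.052). Hey2, a target of Notch signals, had 12.6, 14.1 and 13.5 CPM and then 6.11, 6.49 and 7.18 CPM (-1.02 ± 0.115, edgeR adjusted p = 0.0011).

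Some genes changed course at 1.5 µM. Fabp5, a fatty acid carrier of epithelia, had 314, 551 and 287 CPM in DMSO, 217, 270 and 142 CPM at 1 µM, 423, 462 and 319 CPM at 1.5 µM and 3318, 3128 and 1994 CPM at 3 µM. It thus fell in the first step (log2 fold change -0.87, edgeR adjusted p = 0.020) and rose in this one (0.97 ± 0.154, edgeR adjusted p = 0.0038). Its difference between both steps was 1.84, at an adjusted p of 0.19, as for other genes with the lowest p in that test. Among those were E2f8, Ly6a, Ppa1 and Gm6166, which rose more here, and Csf1r, Rb1, Cdh11 and Tyrobp, which fell more here. Gm6166 and Fabp5 moved alike, at 0.94 and 0.97, and reads may be split between them.

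Hmox1, haem oxygenase, a gene of the oxidative stress response, had 222, 245 and 240 CPM at 1 µM, 142, 155 and 117 CPM at 1.5 µM and 200, 244 and 216 CPM at 3 µM. The 1.5 µM libraries were the lowest of the 12. It changed by -0.78 ± 0.0907 in this step and by 0.67 in the next, a tested difference of -1.45 ± 0.161 (edgeR adjusted p = 0.0013, 0.00054 and 0.0074). Clic6, a chloride channel family member, had 339, 287 and 339 CPM, then 110, 118 and 117 CPM, and 6.43, 7.25 and 7.66 CPM at 3 µM. It fell by 1.47 ± 0.112 on the log2 scale here and by 4.02 in the next step, and that difference of 2.54 ± 0.193 was called (edgeR adjusted p = 0.0037). Frem2, a basement membrane protein, likewise changed by -1.67 ± 0.150 here and by -6.18 in the next step.

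Other genes named by the test against the next step moved little here. Nr3c2, the mineralocorticoid receptor, had 27.7, 23.6 and 33.6 CPM at 1 µM, 30.4, 24.5 and 43.6 CPM at 1.5 µM and 10.4, 7.06 and 12.9 CPM at 3 µM. Ampd3, an AMP deaminase, had 19.0, 21.7 and 28.2 CPM, then 19.8, 20.1 and 26.4 CPM, and 53.8, 69.0 and 89.8 CPM at 3 µM. Neither was called in this step (edgeR adjusted p = 0.19 and 0.74). Boc, Cbr3, Thbd and Tchh were called here with log2 fold changes of -0.40, -0.48, -0.69 and 0.62. Boc lost its call without 1 µM replicate 1 or 2 or any 1.5 µM replicate, and Cbr3 without any 1 µM replicate or 1.5 µM replicate 2 or 3. Thbd lost it without 1 µM replicate 2 or 3 or any 1.5 µM replicate, and Tchh without any of the 6 libraries, DMSO replicate 2 or 3 µM replicate 2. The adjusted p in these fits was 0.050 to 0.15. In the next step the changes were -2.74, 1.67, 2.01 and 3.22. Of 23 p53 target and stress genes, 12 differed between both steps, each with the lower value here, against 1.9% of all genes tested. That count was 6, 5 and 5 without 1 µM replicates 1, 2 and 3, 1, 0 and 6 without the 1.5 µM replicates, 7 without 3 µM replicate 1 and 3 with no replicate block. In this step 11.3% of all genes tested were called higher and 10.5% lower. Other lists had 7 higher and 2 lower calls of 29 for cholesterol and fatty acid synthesis and 1 and 4 of 18 for Notch. Calls numbered 3 and 3 of 15 for hormone-sensing, 3 and 2 of 19 for alveolar and milk and 1 and 4 of 23 for p53 and stress. For Schwann cell genes they were 1 and 0 of 5, and for lymphocyte genes 1 and 1 of 2. Most of these small counts moved by over 1.5 times in some fit without 1 library.

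**Figure D5:**
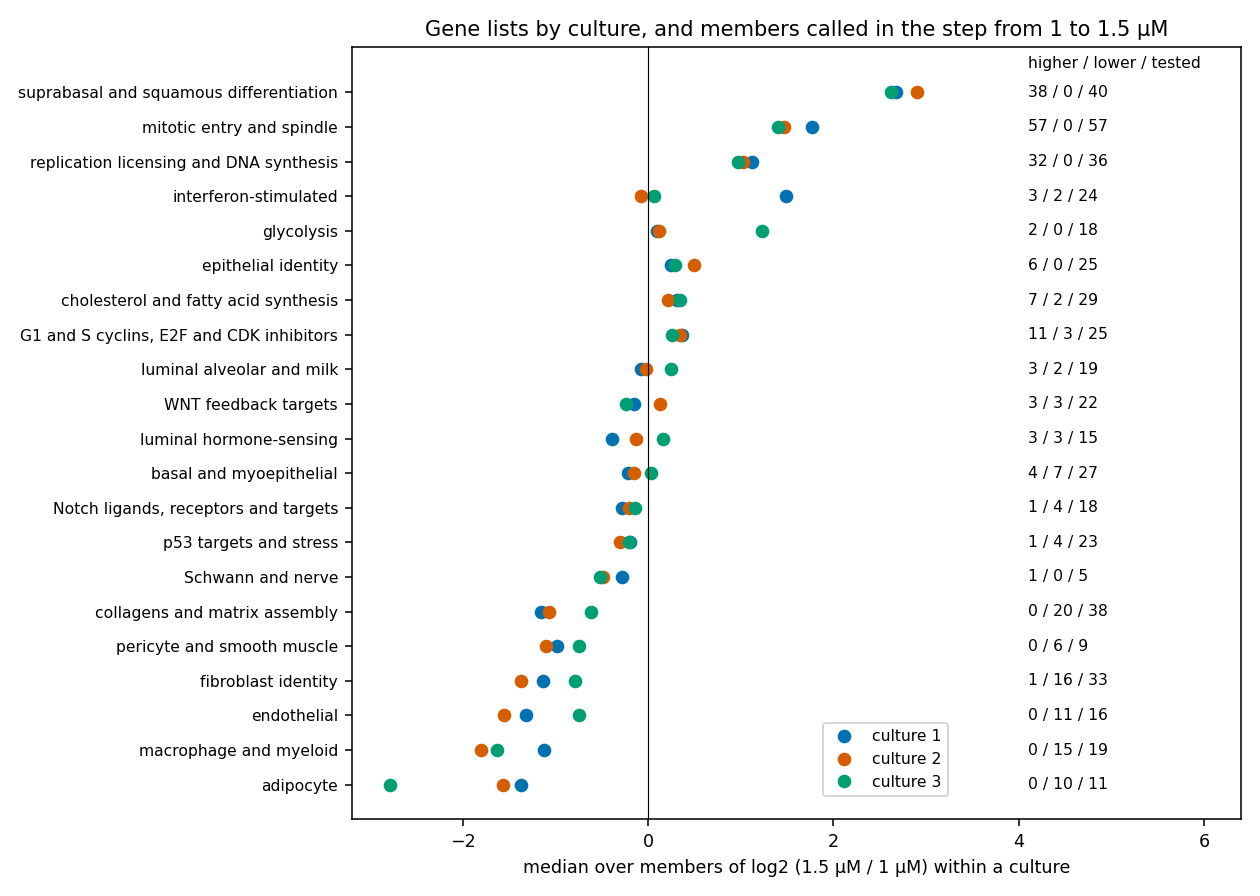
For 21 gene lists with at least 5 genes tested, each point is the median over members of the log2 ratio of 1.5 to 1 µM in 1 culture, and the figures at the right are members called higher, called lower and tested. The 3 cultures lie close together for the mitotic and replication lists and apart for the interferon-stimulated, glycolysis and adipocyte lists.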

How the data were processed

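RNA of 12 libraries was sequenced from polyadenylated, strand-marked libraries, per the labels' protocols. The authors deposited whole-number read counts for Ensembl genes. Their second table holds deposited log2 values, which equal log2 of counts scaled to a total of 10 M, plus 1, and it was not used further. The submitters' processing notes name TopHat2 2.1, Bowtie 1.1.0, HTSeq and DESeq2, and the build GRCm38. The strand setting of counting and the annotation release are not given in the sources used here. Of 25210 identifiers, 24918 are in GENCODE M21, 99.996% of them on the same chromosome. Library totals bound the precision for counting error only, as no molecular identifiers are described.

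Genes were filtered with filterByExpr and libraries scaled by TMM. Contrasts came from edgeR 4.0.16 (R 4.3.3; glmQLFit, robust, glmQLFTest, two-sided) with group and culture as terms over all 12 libraries, and p-values were adjusted by Benjamini and Hochberg over 15316 genes at 0.05. Each culture is an animal, which pairs the libraries. Deviations from group means correlated in all 18 same-culture pairs (0.177 to 0.840). The median in 36 other pairs was -0.212. Centring within groups pushes that value below 0 when same-culture pairs correlate, so it is not separate evidence of pairing. The coefficient of biological variation was 0.156 with and 0.305 without the block. Replicates of a group differed by more than sampling noise. Scripts were tested on simulated data. Per-sample columns left unassigned numbered 0.

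The 22 gene lists, the members and the rule for named genes were chosen with earlier results of these data known. The rule took the 10 largest changes and the 5 lowest p in each direction, among called genes that moved alike in 3 cultures and averaged at least 50 counts (1606 higher and 1281 lower were eligible). It also took up to 4 members per list, a preset set, the switched genes and the 5 lowest p in each direction for the tests between steps. This gave 160 genes, and the 102 described were selected from these after their values were seen. Alternatives were no block, DESeq2 1.42.0, library size or size factor scaling, no filter, the 6 libraries alone, thinned counts, other limits for switched genes, and leaving out each library or culture. Promoters are RefSeq, GRCm38.p6.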

Additional observations from a re-analysis of the deposited data

How the results depend on the processing

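With no replicate block, 831 genes were called (679 higher, 152 lower), 36 differed from the next step, and the lower calls of the fibroblast, collagen and macrophage lists were 0, 0 and 0, with 24 squamous genes higher. Using only the 6 libraries at 1 and 1.5 µM gave 5502 calls, 2923 of them lower. That fit could not give the tests between steps. DESeq2 called 97 differences from the DMSO to 1 µM step and 1532 from the 1.5 to 3 µM step, and scaling by library size alone gave 1652 of the latter. With limits of 1 and 2 CPM, 19 genes were switched on and 2 off. Leaving out 1 library gave 1205 to 5205 calls (647 to 2497 higher, 558 to 2708 lower), 0 to 133 differences from the step before and 19 to 2277 from the step after, with 10 to 24 lower calls in the collagen list. Leaving out 1 culture gave 114 to 4055 calls (76 to 1898 higher, 38 to 2157 lower), and 0 to 28 and 0 to 1429 differences between steps. In those fits the list counts were 3 to 34 replication, 1 to 57 mitotic and 10 to 38 squamous genes higher, and 0 to 24 fibroblast, 0 to 28 collagen and 2 to 15 macrophage genes lower, the last 11 to 16 with 1 library left out. Epcam, not called, ran from -0.02764 to 0.2188 over these fits, negative without 1 µM replicate 3 or 1.5 µM replicate 2, and Ampd3 changed sign (0.02333) with counts thinned to the smallest library. Of the 91 named genes that were called, 43 kept their call with no replicate block and 48 lost it. Those lost included stromal, myeloid, vascular and fat genes and part of the squamous genes. Dsc1, Sprr1b and Alox12b were among the squamous genes that kept their call. The rest of those lost were Krt5, Myl9, Pgr, Axin2, Galnt16, Nos1, Fabp5, Gm6166, Ppa1, Cdh11, Frem2, Nxpe5, Slurp1, Aadacl2, Boc, Cbr3 and Thbd. DESeq2, scaling by size factors and the 6 libraries alone each kept all 91 calls, and library size alone kept 90. With no filter 86 were kept, without Pdgfra, Krt10, Hrnr, Sprr2e and Krt5, and with thinned counts 86, without Ltb4r2, Sprr2e, Pgr, Tchh and Thbd. Leaving out culture 1, 2 or 3 lost 29, 65 and 3 of the 91. Depth limits what can be said of genes near 1 CPM, where a library held about 10 to 25 reads.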

Other observations

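Interferon-stimulated genes moved in 1 culture. Of 24 tested, 16 were over 2-fold higher at 1.5 µM in culture 1, against 1 in culture 2 and 1 in culture 3. Over all 15316 genes tested, 758, 715 and 795 were over 2-fold higher in cultures 1, 2 and 3. The median log2 steps of the list were 1.49, -0.08 and 0.07. The list's summed level was 270, 341 and 365 CPM at 1 µM and 357, 255 and 321 CPM at 1.5 µM. edgeR's test called 3 members higher and 2 lower, near the shares over all genes tested (11.3% and 10.5%). The 3 higher calls became 0 without any 1 µM replicate or without 1.5 µM replicate 1 or 2, and 1 without DMSO replicate 2.

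Glycolysis genes moved mainly in culture 3, where 11 of 18 were over 2-fold higher, against 1 in culture 1 and 0 in culture 2. In culture 3, 795 of all 15316 genes tested were over 2-fold higher. The median log2 steps were 0.09, 0.12 and 1.23, and the summed level went from 5408, 5287 and 4703 CPM to 5485, 5670.2 and 9456 CPM. edgeR's test called 2 of the 18 higher (11.1%, near the 11.3% of all genes tested). It called 0 without any DMSO or 1 µM replicate or without 1.5 µM replicate 3. The count was 1 without 1.5 µM replicate 1 or 2 or 3 µM replicate 1 or 2.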
